A study of Homo sapiens with 4 samples.

Results

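The 39 human HOX genes were followed in RNA-seq counts of the human embryonic stem cell line HUES8, grown in mTeSR1 medium on Matrigel. They were taken by name as every row called HOX, a cluster letter from A to D and a paralogue number, out of 59050 rows, with antisense genes left out and silent members kept. The libraries fall into 2 groups by genotype, 2 libraries labelled CPT2 KO and 2 labelled WT. All 4 carry the same entry, WT, for treatment, and how the knockout was made, from how many clones, is not given in the sources used here. Whether the 2 libraries of a group stem from different cultures is not stated, so the p-values rest on a spread among libraries that may be only technical.

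HOX genes encode homeodomain transcription factors that give cells of the embryo their position along the head-to-tail axis. They lie in 4 clusters, and genes of the same number in different clusters are paralogues. In vertebrate embryos low-numbered genes are switched on first and furthest forward, and high-numbered genes later and further back, with retinoic acid, FGF, Wnt and CDX factors as known inducers. In pluripotent cells the clusters are held largely silent under Polycomb marks, which Trithorax proteins oppose.

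CPT2, a mitochondrial enzyme of fatty acid oxidation and the gene named in the knockout label, had 233 and 170 counts in the libraries labelled CPT2 KO, against 52 and 72 in those labelled WT. The difference was 3.44-fold (1.78 on the log2 scale with SE 0.27, edgeR adjusted p = 0.0218). The transcript was thus higher, not lower, under the knockout label. Whether the labels are swapped or the knockout leaves the transcript in place was not tested. Every direction given is therefore one between libraries as they are labelled. Library totals ran from 16887789 to 20460031 counts. Replicate 1 labelled WT stood apart, with mitochondrial transcripts at 4.15% of its counts, against 7.21% to 7.84% in the other libraries, and with chi-square over degrees of freedom at 39.6 to 53.3 against each of them, where the other pairs gave 10.5 to 12.6. All 12 listed stem cell markers entered the test, with POU5F1 at 37218 to 42616 counts. Of the 10 fibroblast markers, THY1 had 3972 to 5775 counts, COL1A2 2675 to 3852, COL1A1 538 to 678 and COL6A3 30 to 55, while COL3A1 had at most 7 and DCN, LUM, PRRX1, TWIST1 and FAP at most 3 counts in any library.

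HOX transcripts were scarce and came from few genes. They summed to 732 and 586 counts in the libraries labelled CPT2 KO, and to 1193 and 1331 in those labelled WT. That is 36.2 and 35.3 CPM (the usual depth-scaled count, after TMM normalization), against 64.6 and 64.5 CPM, and the groups did not overlap. Of the 39 genes, 18 had no count in any library, 10 had a few counts but too few to test, and 11 entered the test. A count of 0 allows a level of up to 0.145 to 0.18 CPM, the value of 3 counts, for counting error only.

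The tested genes sat at 1 or both ends of their clusters, and the remaining stretches were at or near 0. In HOXB, on chromosome 17 at 48528526 to 48729178 (GRCh38, GENCODE 29), the front genes HOXB1, HOXB2 and HOXB3 and the rear gene HOXB13 were tested. HOXB4, HOXB5, HOXB6, HOXB8 and HOXB9 between them had no count, and HOXB7 had 9 in all. In HOXA, on chromosome 7 at 27092993 to 27200106, the rear gene HOXA13 was tested. HOXA2 to HOXA6 and HOXA9 had no count, HOXA7 had 2 in all, HOXA10 9 and HOXA11 12. In HOXD, on chromosome 2 at 176092891 to 176190907, the rear run HOXD9 to HOXD13 was tested. HOXD1 and HOXD8 had no count, and HOXD3 and HOXD4 had 1 and 8 in all. In HOXC, on chromosome 12 at 53938765 to 54056030, HOXC4, its lowest-numbered gene, was tested alone. HOXC5, HOXC9, HOXC11 and HOXC12 had no count, and HOXC6, HOXC8, HOXC10 and HOXC13 had 1 to 6 in all.

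By paralogue number, 3 of 8 genes numbered 1 to 3, 1 of 15 numbered 4 to 8 and 7 of 16 numbered 9 to 13 entered the test. The 15 middle genes included 9 with no count at all, and HOXC4 gave nearly all of their counts.

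**Figure D1:**
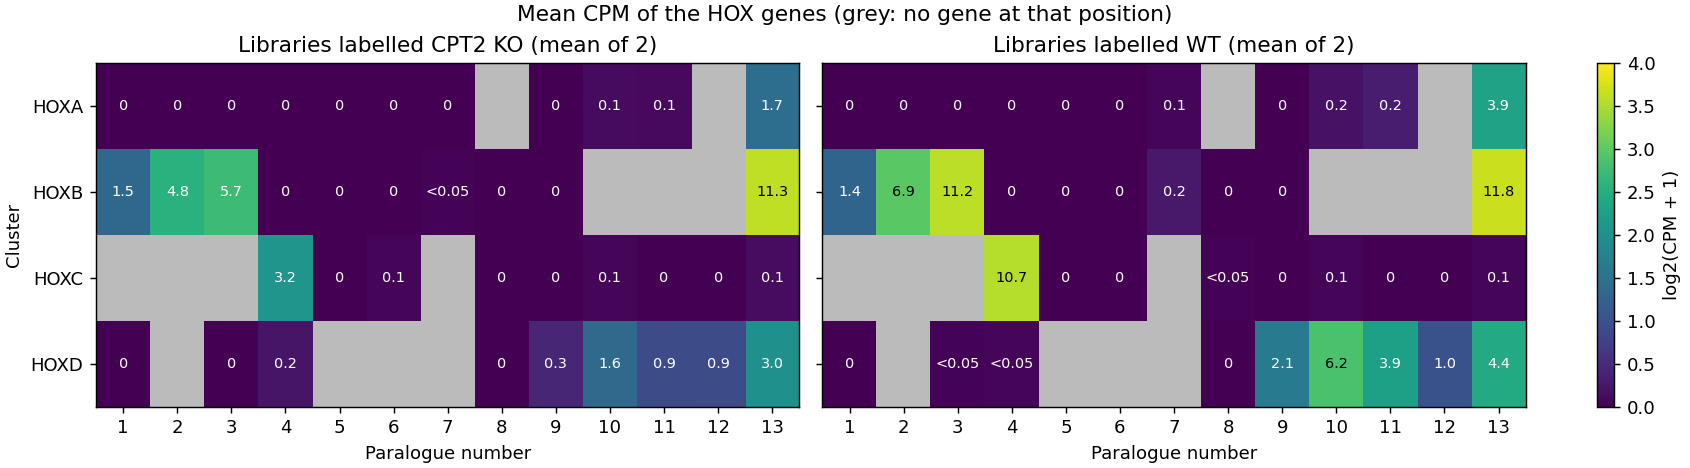
Mean CPM of each HOX gene by cluster (rows) and paralogue number (columns), in the 2 libraries labelled CPT2 KO on the left and the 2 labelled WT on the right; colour is log2(CPM + 1) and grey squares hold no gene. Signal sits in HOXB1 to HOXB3, the genes numbered 13 of HOXA, HOXB and HOXD, HOXC4, and HOXD9 to HOXD12, and the other squares are at or near 0.

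HOXC4 and HOXD10 are the members on which the comparison turns, so the 300 bases around their RefSeq start sites (GRCh38.p14, 250 before and 50 after, plus strand) are shown with each CG dinucleotide, the site of DNA methylation, in capitals. The HOXC4 window is chr12:54016638-54016937 and the HOXD10 window is chr2:176116528-176116827.
HOXC4: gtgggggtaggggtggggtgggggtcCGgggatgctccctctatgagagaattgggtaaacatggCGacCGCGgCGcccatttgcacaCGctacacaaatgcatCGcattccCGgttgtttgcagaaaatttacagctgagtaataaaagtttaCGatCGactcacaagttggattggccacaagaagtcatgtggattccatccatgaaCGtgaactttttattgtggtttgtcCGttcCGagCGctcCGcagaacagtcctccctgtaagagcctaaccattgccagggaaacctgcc
HOXD10: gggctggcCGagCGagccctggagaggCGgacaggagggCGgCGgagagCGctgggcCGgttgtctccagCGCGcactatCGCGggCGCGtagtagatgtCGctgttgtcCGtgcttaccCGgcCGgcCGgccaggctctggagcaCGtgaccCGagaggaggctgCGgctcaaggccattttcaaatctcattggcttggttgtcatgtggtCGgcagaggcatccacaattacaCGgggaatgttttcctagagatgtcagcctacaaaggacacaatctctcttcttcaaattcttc

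The HOXC4 window held 15 CG and the HOXD10 window 23. Windows were in the table for 20 HOX genes, matched by symbol, and taking the first window of each gene their median was 22.5 CG, beside 14 over all 35116 windows of that length. The 7 tested genes with a window had a median of 23 CG and the 8 genes with no count had 24.5. The HOXC4 window is also that of HOXC5, which had no count in any library. Neither printed window held, on either strand, the TATA box TATAAA, the CDX-type motif TTTATG or the HOX-PBX-type motif TGATNNAT, none of which contains another and which occur in 11.5%, 10.6% and 7.4% of all windows.

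HOX proteins are related through the homeobox, so the 180-base homeoboxes of 3 tested genes are printed to show how much sequence they share with other members. They were located in GENCODE 29 transcripts by the conserved motif of the third helix, and capitals mark the longest exact run shared with the homeobox of any other HOX gene.
HOXC4: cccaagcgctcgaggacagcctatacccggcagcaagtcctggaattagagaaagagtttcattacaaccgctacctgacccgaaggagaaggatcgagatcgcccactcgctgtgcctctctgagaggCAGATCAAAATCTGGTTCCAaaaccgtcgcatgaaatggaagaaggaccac
HOXD10: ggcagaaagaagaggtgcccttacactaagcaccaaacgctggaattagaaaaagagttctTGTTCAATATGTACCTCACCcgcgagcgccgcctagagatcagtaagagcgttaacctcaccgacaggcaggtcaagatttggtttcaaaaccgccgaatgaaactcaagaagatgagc
HOXD9: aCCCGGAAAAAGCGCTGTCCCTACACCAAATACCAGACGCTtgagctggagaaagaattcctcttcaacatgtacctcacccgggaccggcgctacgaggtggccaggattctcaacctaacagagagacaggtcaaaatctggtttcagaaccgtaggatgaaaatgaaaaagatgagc

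The longest run was 20 bases for HOXC4 (shared with HOXC6) and for HOXD10 (with HOXB9), and 40 for HOXD9 (with HOXB9). Of these partners HOXB9 had no count and HOXC6 had 2 in all. The homeoboxes of HOXC4 and HOXD10 were closer to those of paralogues than to others of their cluster. HOXC4 was identical at a median of 78.3% of bases to its 3 paralogues and 58.3% to the 8 other genes of HOXC, and HOXD10 at 80.3% to its 2 paralogues and 59.4% to the 8 others of HOXD. Of the paralogues of HOXC4, HOXA4 and HOXB4 had no count and HOXD4 had 8 in all.

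Of the 11 tested HOX genes, edgeR called 2 lower in the libraries labelled CPT2 KO, HOXC4 and HOXD10, and 0 higher, at an adjusted p under 0.05 over all 17564 tested genes. Over all tested genes, 0.0569% were called lower and 0.359% higher. The log2 fold change was below 0 for 10 of the 11, against 49.7% of all tested genes, with a median of -0.99 beside 0.0017 over all. Unadjusted p was under 0.05 for 6 of the 11, all lower, against 4.16% of all tested genes on that side. In the same 6 the groups did not overlap, which 19.8% of all tested genes showed in that direction. DESeq2 also called 2 HOX genes lower and 0 higher, where 0.243% of all genes it tested were called lower and 0.744% higher. Limma-voom called 0 HOX genes, with 0.0114% of all genes called lower and 0.159% higher. In the opposite direction 0 of the 11 had groups that did not overlap, beside 21.1% of all tested genes. HOXD9 passed the filter on low counts through the libraries labelled WT alone, and HOXD11 and HOXD12 through those and 1 labelled CPT2 KO, so these counts describe the genes that passed and not all 39. In bulk libraries fewer cells that express a gene and less RNA per cell cannot be told apart.

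HOXC4, a gene of neck-level patterning in mice, had 61 and 58 counts in the libraries labelled CPT2 KO, against 227 and 188 in those labelled WT. Both libraries labelled CPT2 KO lay below both labelled WT, and the first 2 lay close together. Its mean was 3.25 ± 0.336 CPM in the libraries labelled CPT2 KO and 10.7 ± 2.24 CPM in those labelled WT (SD, n = 2 each). HOXC4 fell by 1.72 on the log2 scale (SE 0.29, edgeR adjusted p = 0.0332), or 3.29-fold, and the ratio of pooled counts was 0.304 with an exact 95% counting interval of 0.246 to 0.374. The gene (ENSG00000198353.7, protein coding) spans 54016931 to 54056030 on the plus strand. It shares 484 exon bases with HOXC6 and 305 with HOXC5 on the same strand, so its reads could have been assigned to either or dropped. With the counts of HOXC4, HOXC5 and HOXC6 summed, an alternative chosen after seeing the data, the log2 fold change was -1.69 (edgeR adjusted p = 0.0353).

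HOXD10, which patterns the limb and the lumbar spinal cord, had 34 and 26 counts in the libraries labelled CPT2 KO, against 101 and 144 in those labelled WT. The 2 libraries labelled CPT2 KO lay close together, at 1.68 and 1.56 CPM, and both were below the 5.47 and 6.98 CPM of those labelled WT. HOXD10 fell by 1.94 on the log2 scale (SE 0.34, edgeR adjusted p = 0.0467), or 3.83-fold, with a counting interval of 0.193 to 0.346 on the ratio of 0.26. The gene (ENSG00000128710.5, protein coding) spans 176108790 to 176119942 on the plus strand and shares 452 exon bases with HOXD11. HOXD10 and HOXD11 summed, also chosen after seeing the data, gave -2.02 on that scale with an edgeR adjusted p = 0.032.

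Both calls depended on having both libraries labelled CPT2 KO. Without replicate 1 or replicate 2 of that group, the edgeR adjusted p was 0.245 or 0.111 for HOXC4 and 0.227 or 0.202 for HOXD10, with log2 fold changes of -1.61 and -1.82, and of -1.99 and -1.88. Without replicate 1 labelled WT, the library that stood apart, both stayed called, with log2 fold changes of -1.49 for HOXC4 and -2.10 for HOXD10 (edgeR adjusted p = 0.0136 and 0.00164). Without replicate 2 labelled WT they also stayed called. HOX genes called lower numbered 0 without either library labelled CPT2 KO, beside 0.0114% of all tested genes each time. They numbered 3 without replicate 1 labelled WT (0.205% of all) and 4 without replicate 2 labelled WT (3.84%), and 0 were called higher, beside 0.176%, 0.461%, 0.643% and 3.02% of all without CPT2 KO replicate 1, CPT2 KO replicate 2, WT replicate 1 and WT replicate 2 in that order. Limma-voom gave adjusted p = 0.0981 for HOXC4 and 0.12 for HOXD10.

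The neighbours of HOXD10 on both sides also had low counts in the libraries labelled CPT2 KO, and neither passed the test. HOXD9, a limb and trunk patterning gene, had 8 and 5 counts in the libraries labelled CPT2 KO, against 42 and 40 in those labelled WT. The groups did not overlap, and the log2 fold change was -2.55 (SE 0.55, edgeR adjusted p = 0.11, counting interval 0.0859 to 0.304 on a ratio of 0.168). HOXD9 passed the filter on low counts through the libraries labelled WT alone, so its place among the tested genes rests on the group where it is high. HOXD11, needed for the forearm in mice, had 6 and 25 counts in the libraries labelled CPT2 KO, against 49 and 104 in those labelled WT, with a log2 fold change of -2.18 (SE 0.59, edgeR adjusted p = 0.24). Each group of HOXD11 was itself spread widely, and its log2 fold change was -1.36 without replicate 1 and -3.67 without replicate 2 labelled CPT2 KO. HOXD11 was called without replicate 1 labelled WT (-2.57, edgeR adjusted p = 0.00312) and HOXD9 without replicate 2 labelled WT (-2.67, 0.0143).

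In HOXD12 and HOXD13, the last 2 genes of the cluster, the values of the groups overlapped. HOXD13, which shapes the digits, had 74 and 40 counts in the libraries labelled CPT2 KO, against 54 and 122 in those labelled WT (log2 fold change -0.54, SE 0.40, edgeR adjusted p = 0.707). HOXD12 had 27 and 7 counts in the libraries labelled CPT2 KO, against 18 and 22 in those labelled WT (log2 fold change -0.16, SE 0.59, edgeR adjusted p = 0.954).

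HOXD make-up was compared on a split chosen after the values were seen. HOXD9 to HOXD11 gave 48 of 151 and 56 of 107 HOXD counts in the libraries labelled CPT2 KO, against 192 of 264 and 288 of 435 in those labelled WT. These are shares of 31.8% (exact binomial 95% interval 24.5 to 39.9) and 52.3% (42.5 to 62.1), against 72.7% (66.9 to 78.0) and 66.2% (61.5 to 70.6). The 2 libraries labelled CPT2 KO also differed from each other beyond counting error. The log2 ratio of summed CPM was -2.08 for HOXD9 to HOXD11 and -0.48 for HOXD12 and HOXD13. Whether these ratios differ was not tested.

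**Figure D2:**
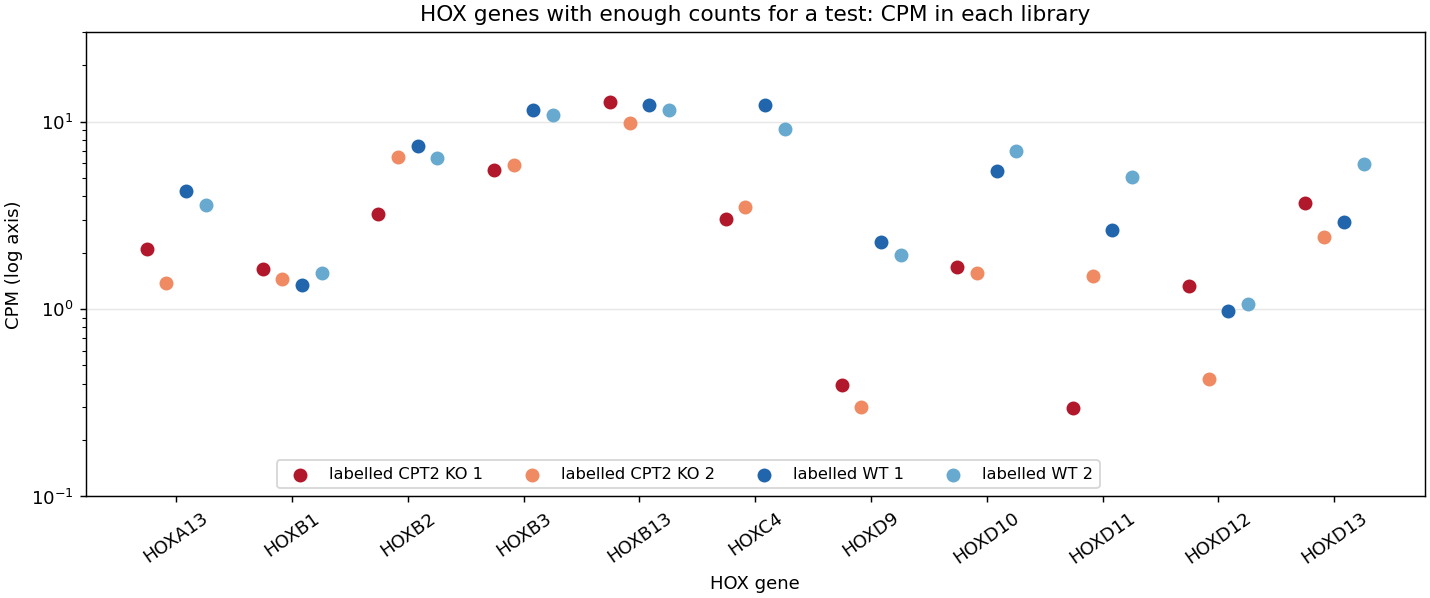
CPM (log axis) of the 11 tested HOX genes in each library, with the 2 libraries labelled CPT2 KO in red shades left of the 2 labelled WT in blue shades; each point is 1 library. HOXC4, HOXD9, HOXD10, HOXD11, HOXB3 and HOXA13 have both red points below both blue points, and HOXB1, HOXB2, HOXB13, HOXD12 and HOXD13 overlap.

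In HOXB, the front gene HOXB3 had lower values in both libraries labelled CPT2 KO, while for HOXB1 and HOXB2 the groups overlapped. HOXB3, a gene of hindbrain and pharyngeal patterning, had 111 and 97 counts in the libraries labelled CPT2 KO, against 214 and 225 in those labelled WT. The groups did not overlap, and replicates lay close together, at 5.66 ± 0.248 CPM in the libraries labelled CPT2 KO and 11.2 ± 0.478 CPM in those labelled WT (SD, n = 2 each). Its log2 fold change was -0.99 (SE 0.24), which did not pass the test (edgeR adjusted p = 0.168), and it ranged from -1.03 to -0.95 over the alternatives. It was called without replicate 2 labelled WT (edgeR adjusted p = 0.0279). HOXB3 shares 374 exon bases with HOXB-AS1 on the opposite strand, 433 with HOXB6 and 159 with HOXB4 on its own, so its reads are uncertain. HOXB-AS1 had 63 and 36 counts in the libraries labelled CPT2 KO, against 54 and 80 in those labelled WT (log2 fold change -0.35, edgeR adjusted p = 0.786).

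HOXB2, which acts in the hindbrain, had 65 and 108 counts in the libraries labelled CPT2 KO, against 137 and 132 in those labelled WT. Scaled to CPM, replicate 2 labelled CPT2 KO at 6.50 lay level with replicate 2 labelled WT at 6.40, and replicate 1 labelled CPT2 KO at 3.21 was low alone (log2 fold change -0.53, SE 0.34, edgeR adjusted p = 0.662). Without that library the log2 fold change was -0.087, and it was -1.10 without replicate 2 labelled CPT2 KO. HOXB1, a retinoic acid target that marks a single hindbrain segment, had 33 and 24 counts in the libraries labelled CPT2 KO, against 25 and 32 in those labelled WT. Its log2 fold change was 0.085 (SE 0.43, edgeR adjusted p = 0.967), and it was -0.011 without replicate 1 labelled CPT2 KO and -0.005 without replicate 1 labelled WT.

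HOXB13, a gene of the hindgut and prostate that lies apart from the rest of its cluster, had the most counts of any HOX gene in the libraries labelled CPT2 KO. It had 260 and 163 counts there, against 225 and 237 in those labelled WT, with a log2 fold change of -0.056 (SE 0.23, edgeR adjusted p = 0.958) that turned to 0.12 without replicate 2 labelled CPT2 KO. HOXB13 gave 55.4% and 41.5% of HOXB counts in the libraries labelled CPT2 KO, against 37.0% and 37.8% in those labelled WT. The exact 95% binomial interval of 36.6 to 46.5 for replicate 2 labelled CPT2 KO overlaps those of both libraries labelled WT. Beside it, at distances of 2240 and 4 bases, lie PRAC1 and PRAC2, small genes known from prostate and rectum. PRAC1 had 201 and 215 counts in the libraries labelled CPT2 KO, against 106 and 135 in those labelled WT (log2 fold change 0.89, edgeR adjusted p = 0.269), and PRAC2 had 80 and 74 against 85 and 69 (0.084, adjusted p = 0.955). PRAC1 was chosen after its values were seen.

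HOXA13, a gene of the digits and the urogenital tract, carried most HOXA counts, with 42 and 23 in the libraries labelled CPT2 KO, against 79 and 74 in those labelled WT. The groups did not overlap, and the log2 fold change of -1.16 did not pass the test (SE 0.37, edgeR adjusted p = 0.37). It shares 86 exon bases with the antisense RNA HOTTIP, which had 0 and 4 counts in the libraries labelled CPT2 KO, against 3 and 12 in those labelled WT. EVX1, a homeobox gene 42593 bases beyond HOXA13, had 11 and 11 counts in the libraries labelled CPT2 KO, against 66 and 47 in those labelled WT. Its groups did not overlap, and it did not pass the test (log2 fold change -2.27, SE 0.50, edgeR adjusted p = 0.117). EVX2, the matching gene beyond HOXD13, had no count in the libraries labelled CPT2 KO, against 1 and 3 in those labelled WT.

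**Figure D3:**
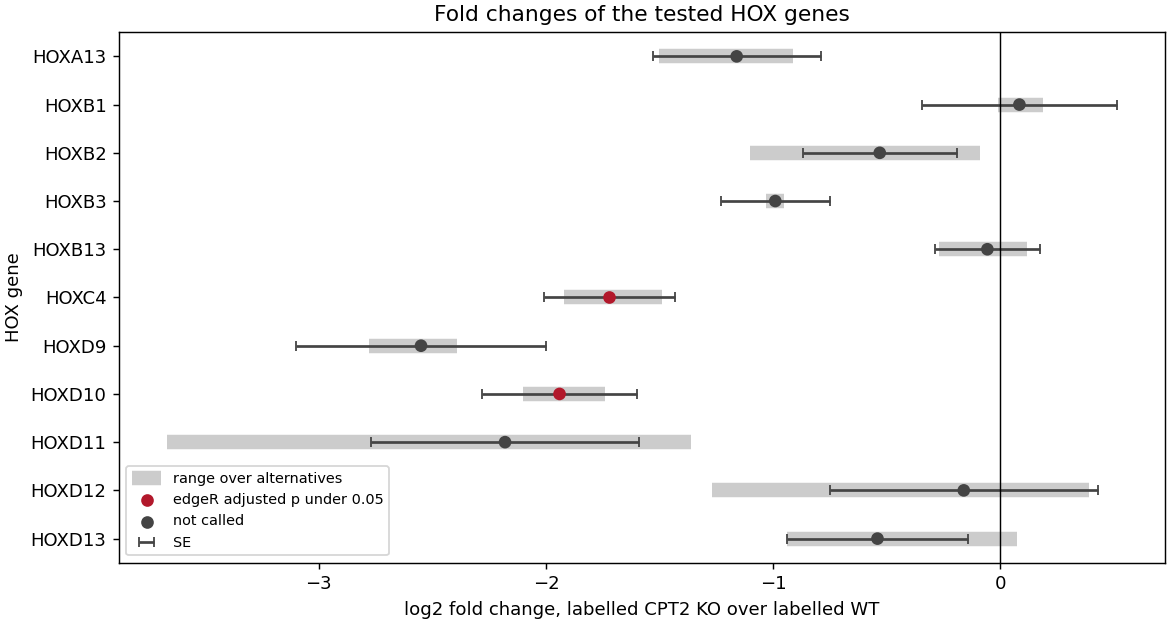
Log2 fold change of each tested HOX gene, CPT2 KO over WT as labelled (points), with its SE (bars) and the range over the alternative analyses (grey); the 2 red points, HOXC4 and HOXD10, had an edgeR adjusted p under 0.05. The point lies left of 0 for every gene but HOXB1, and the grey range crosses 0 for HOXB1, HOXB13, HOXD12 and HOXD13.

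Summed over each cluster, all 4 clusters had lower CPM in the libraries labelled CPT2 KO, without overlap between groups. Of single tested genes, 19.8% showed no overlap in that direction. HOXA summed to 1.89 ± 0.466 CPM in the libraries labelled CPT2 KO and 4.37 ± 0.702 CPM in those labelled WT (SD, n = 2 each), a log2 ratio of -1.21. HOXB summed to 23.4 ± 0.331 CPM and 31.6 ± 1.78 CPM, a log2 ratio of -0.43, the smallest of the 4 in size. HOXC summed to 3.46 ± 0.211 CPM and 10.8 ± 2.36 CPM (-1.65), and HOXD to 6.95 ± 0.724 CPM and 17.7 ± 4.81 CPM (-1.35). These sums get no test, since 2 libraries against 2 cannot pass a permutation test and the genes were chosen with earlier results known. The sums rest on few genes that were already described singly, so they are not separate support. HOXA13 was 93.3% and 88.5% of HOXA counts in the libraries labelled CPT2 KO, against 87.8% and 92.5% in those labelled WT. HOXC4 was 91.0% and 96.7% of HOXC counts in the libraries labelled CPT2 KO, against 98.3% and 99.5% in those labelled WT, and without it the HOXC log2 ratio was 0.65 on at most 6 counts per library. HOXB stood at 64.1% and 67.1% of all HOX counts in the libraries labelled CPT2 KO, against 51.0% and 47.1% in those labelled WT. HOXD was 20.6% and 18.3% of them, against 22.1% and 32.7%.

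**Figure D4:**
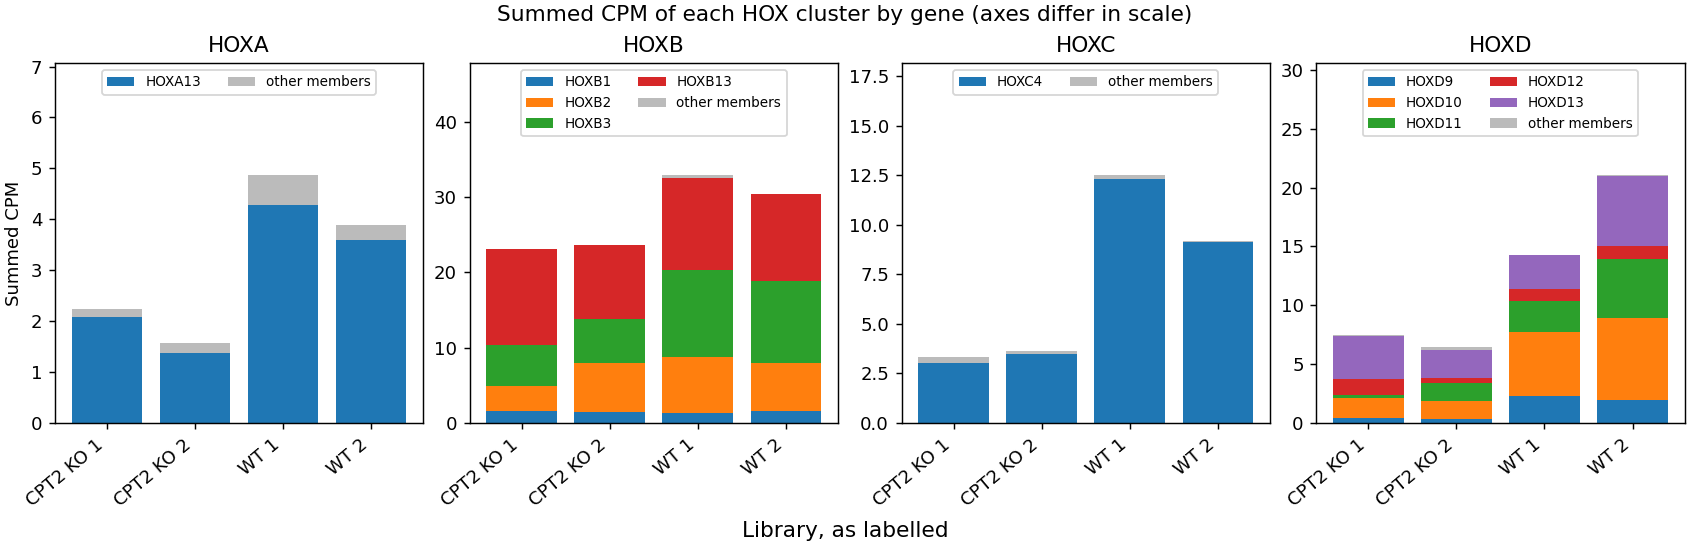
Summed CPM of each HOX cluster in each library, stacked by gene, with the 2 libraries labelled CPT2 KO left of the 2 labelled WT; vertical axes start at 0 and differ between panels. The HOXB13 block is of like height in all 4 libraries, and the HOXB3, HOXC4, HOXD9 and HOXD10 blocks are shorter in the libraries labelled CPT2 KO.

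Per transcript length (RPKM, here CPM divided by length in kilobases), HOXC4 ranked first in the libraries labelled WT, at 3.87 ± 0.811, and below HOXB13, HOXB2 and HOXD13 in those labelled CPT2 KO, at 1.18 ± 0.121 (SD, n = 2 each). HOXB13 ranked first in the libraries labelled CPT2 KO, at 3.27 ± 0.62, and second in those labelled WT, at 3.41 ± 0.141. In the libraries labelled WT these 2 genes lay within the spread of HOXC4 of each other. The lowest of the tested genes was HOXD9 in the libraries labelled CPT2 KO, at 0.186 ± 0.0357, and HOXB1 in those labelled WT, at 0.584 ± 0.0563. HOXD9 was among the tested genes only through the libraries labelled WT. HOXA13, the next above HOXD9 in the libraries labelled CPT2 KO, was at 0.341 ± 0.0964 there and at 0.775 ± 0.096 in those labelled WT.

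Noncoding RNAs inside the clusters were scarcer than the HOX genes. Of 27 listed, 24 were in the table, 14 of these had no count in any library, and 2, HOXB-AS1 and HAGLR, were tested with 0 called. HAGLR, antisense to HOXD1 and HOXD3, had 12 and 22 counts in the libraries labelled CPT2 KO, against 9 and 17 in those labelled WT (log2 fold change 0.48, edgeR adjusted p = 0.841). HOTAIR, the HOXC antisense RNA, had 1 count in 1 library. The hairpin genes of the miR-10 and miR-196 families, which lie in these clusters, had no count. Those at HOXB4 and HOXA9 share 110 and 84 exon bases with these genes on the same strand, so their reads could have been dropped.

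The genes beyond the clusters and the partners of HOX proteins had 0 calls, where 0.359% of all tested genes were called higher and 0.0569% lower, so that 0 is near the background for lists of this size. Of 20 tested genes of the flanking regions 0 were called, with a median log2 fold change of -0.093, and TTLL6, beyond HOXB13, had 143 and 104 counts in the libraries labelled CPT2 KO, against 237 and 226 in those labelled WT (-0.83, edgeR adjusted p = 0.273; chosen after its values were seen). MTX2 and LNPK, which flank HOXD, had log2 fold changes of 0.12 and -0.31. The cofactors that bind DNA with HOX proteins gave 0 calls among 7 tested, with PBX2 at -0.23 and PBX3 at -0.24 (edgeR adjusted p = 0.637 and 0.650). Of the 7 tested cofactors, 5 had a log2 fold change below 0 and 2 above. MEIS3 was at -0.38 (edgeR adjusted p = 0.552). MEIS1 and MEIS2, also cofactors, had too few counts to test. MEIS1 had 12 and 8 counts in the libraries labelled CPT2 KO, against 2 and 2 in those labelled WT, and MEIS2 had 9 and 6, against 0 and 4.

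Known regulators of the clusters were tested in the same fit, where 0.359% of all tested genes were called higher and 0.0569% lower, so that 0 calls are near the background in these lists too. Polycomb genes gave 0 calls among 31 tested (median -0.051), with EZH2, the methyltransferase of Polycomb repressive complex 2, at a log2 fold change of 0.37 and SUZ12 and EED, its partners, at -0.088 and 0.076 (edgeR adjusted p = 0.467, 0.864 and 0.920). Trithorax and MLL complex genes gave 0 among 18 (median -0.10), with KMT2A, the HOX activator also called MLL1, at -0.15 and KDM6A, an H3K27 demethylase, at -0.58 (adjusted p = 0.754 and 0.275). Retinoic acid pathway genes gave 0 among 13 (median 0.079), with CYP26A1, which degrades retinoic acid, at 63 and 25 counts in the libraries labelled CPT2 KO, against 64 and 24 in those labelled WT. Caudal and ParaHox genes were nearly silent. CDX1, CDX2 and CDX4, direct activators of HOX genes, had at most 10 counts in any library.

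Of the lists of known regulators, posterior axis inducers alone had calls. They gave 3 higher and 0 lower among 13 tested (median 0.058), beside 0.359% higher and 0.0569% lower of all tested genes. The log2 fold change was above 0 for 7 of the 13 and below 0 for 6. The 3 called genes were FGF8, WNT3 and WNT8A. FGF8, WNT3 and WNT8A are secreted signals of the primitive streak and tail end of the embryo. FGF8 had 214 and 142 counts in the libraries labelled CPT2 KO, against 4 and 7 in those labelled WT (log2 fold change 5.06, SE 0.44, edgeR adjusted p = 0.000841). WNT3 had 586 and 315 counts, against 90 and 126 (2.13, edgeR adjusted p = 0.00646). WNT8A had 47 and 21, against 1 and 1 (4.99, edgeR adjusted p = 0.0219), a fitted value that rests on 1 count in each library labelled WT. FGF8 and WNT8A passed the filter on low counts through the libraries labelled CPT2 KO alone. Their place among the tested genes thus rests on the group where they are high, and their calls are not separate support. TBXT, the primitive streak factor, had 136 and 15 counts in the libraries labelled CPT2 KO, against 9 and 4 in those labelled WT, and did not pass (adjusted p = 0.523).

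Marker lists of several other cell types differed in summed level between the groups. Summed over the 10 endoderm markers the level was 147 and 16.8 CPM in the libraries labelled CPT2 KO, against 4.22 and 2.96 CPM in those labelled WT, with 0 of 5 tested markers called and APOA1 at 0. CER1 gave most of it, with 2509 and 185 counts in the libraries labelled CPT2 KO, against 3 and 0 in those labelled WT. The 10 mesoderm and streak markers summed to 699 and 461 CPM, against 390 and 359 CPM, with 0 of 6 called and HAND1 at 0. Most of that sum was KDR, at 574 and 426 CPM in the libraries labelled CPT2 KO, against 380 and 350 CPM in those labelled WT. The streak factors MIXL1 and EOMES had 1348 and 360 and 867 and 109 counts in the libraries labelled CPT2 KO, against 38 and 55 and 12 and 12 in those labelled WT (log2 fold changes 4.22 and 5.33, edgeR adjusted p = 0.344 and 0.569). Of the 6 tested markers of this list, 5 had a log2 fold change above 0 and 1, TBX6, below (-0.72, edgeR adjusted p = 0.614). MESP1, with too few counts to test, had 2 and 1 counts in the libraries labelled CPT2 KO, against 8 and 4 in those labelled WT. The 10 neural markers summed to 518 and 461 CPM, against 439 and 439 CPM, while 4 of the 7 tested had a log2 fold change below 0 (median -0.27). SOX1 and SIX6 were called lower, beside 0.0569% of all tested genes. SOX1 had 15 and 5 counts in the libraries labelled CPT2 KO, against 82 and 130 in those labelled WT, and SIX6 2 and 1, against 24 and 67. SIX6 passed the filter on low counts through the libraries labelled WT alone, and SOX1 through those and replicate 1 labelled CPT2 KO. The place of SIX6 among the tested genes thus rests on the group where it is high. NES, which gave most of the sum, OTX2 and PAX6 had log2 fold changes of 0.36, 1.25 and 1.01 and were not called (edgeR adjusted p = 0.465, 0.626 and 0.664). Amnion and trophoblast markers summed to 15.2 and 14.9 CPM, against 12.3 and 15.6 CPM, and fibroblast markers to 450 and 435 CPM, against 477 and 502 CPM, with 0 called in both lists. For the lists with 0 calls, 0 is near the background of 0.359% called higher and 0.0569% lower over all tested genes. Of the 12 stem cell markers, ZFP42 was called higher (log2 fold change 0.98, edgeR adjusted p = 0.0164), beside that 0.359%. The part of these differences in the HOX levels was not tested.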

How the data were processed

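Read counts per gene symbol, not normalized, were used as deposited by the authors, with gene lengths, per the file headers. HISAT2 2.1.0, featureCounts 1.6.4 and the build GRCh38 (hg38) come from the submitters' processing notes. For annotation release, strand and reads with several alignments or overlapping genes, settings were not given in the sources used here. Where HOX genes overlap, shared reads can be split, assigned to a partner or lost.

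CPM and RPKM were computed from the deposited counts with TMM-scaled library sizes. Genes were filtered with filterByExpr, about 10 counts in 2 libraries, and compared by edgeR 4.0.16 (R 4.3.3) with its robust quasi-likelihood test and group as the only term. Benjamini-Hochberg adjustment ran over every gene that passed, and calls were made at 0.05. SE is the log2 fold change over the square root of F. Fold changes put CPT2 KO over WT, as labelled. DESeq2 1.42.0 and limma-voom (limma 3.58.1) were among the alternatives. Intervals are exact binomial, cover counting error only and need reads to be independent.

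The HOX genes, the 14 lists of related genes and markers, and the alternatives were chosen with earlier results of these data known. HOX genes that were called, had 10 or more counts in both libraries of a group or an unadjusted p under 0.05 are given in full. Listed genes are named if called or among the 4 highest, and EVX2, TTLL6, PRAC1, PRAC2, MTX2, LNPK, TBXT, CYP26A1, KDM6A, KMT2A, EZH2, SUZ12, EED, HOTAIR, HOTTIP, MEIS1, MEIS2 the CDX genes and the remaining marker genes were named outside that rule, with their values seen. Positions and overlaps come from GENCODE 29, where all 39 HOX symbols were found and 19 had the same length as in the table, so overlaps in the annotation counted may differ. Promoters are from RefSeq on GRCh38.p14. Some items are not reported here.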

Additional observations from a re-analysis of the deposited data

How the results depend on the processing

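Log2 fold changes of HOXC4, HOXD9, HOXD10, HOXD11, HOXB2, HOXB3 and HOXA13 kept their sign under every alternative run. HOXC4 and HOXD10 stayed called in 12 of 15 alternatives each, among them all 3 scalings, both other filters and DESeq2. HOX calls lower numbered 2, and 0 with limma-voom, 0 at a threshold of 0.01 and 0 to 4 with each library left out, and HOX calls higher were 0 throughout. Over all genes 63 were called higher and 10 lower. That became 101 and 23 with no filter, 138 and 45 with DESeq2, 28 and 2 with limma-voom, 27 and 2 at a threshold of 0.01, and 31 to 531 and 2 to 674 with each library left out. The top of those ranges came without replicate 2 labelled WT, which leaves the library that stood apart as its group; a lone library is assumed to vary like the other group.

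With the replicate number as a block the calls were 233 higher and 140 lower, with 5 HOX genes lower, HOXC4, HOXD9, HOXD10, HOXD11 and HOXB3. The labels do not say that the numbers pair the libraries, and the correlation of the replicate differences between the groups was 0.173 over 17564 genes, on 2 pairs.

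With each library left out the log2 fold change ran from -0.011 to 0.19 for HOXB1, from -0.27 to 0.12 for HOXB13, from -1.27 to 0.39 for HOXD12 and from -0.94 to 0.075 for HOXD13, crossing 0 in each. The HOXB log2 ratio was -0.35 with RPKM summed and -0.71 without HOXB13. The HOXC ratio ran from -1.85 to -1.40 and the HOXD ratio from -1.60 to -1.04 with each library left out, and the HOXC ratio was 0.65 without HOXC4. The cause was not tested. Depth limits what can be said of the silent genes, since 1 count was worth 0.0485 to 0.0602 CPM.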
